A study of Mus musculus with 24 samples.

Results

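The most-counted nuclear genes of a mouse adipose tissue RNA-seq series and the genes lying opposite to them are described here, 7 genes of the 54232 in the deposited count table. Cep85, Gm20721, Gm10252, Cnbd2 and Ermard were selected on their counts summed over the 24 libraries, which are among the highest of all nuclear genes. Gnas and Ftl1 were added because they lie on the other strand from Gm20721 and Gm10252. The totals therefore chose the members, and ranks, totals and levels are a description with no test. The same holds for a member having more counts than its partner, which the choice by totals favours.

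The study asked whether a peptide antagonist of Na,K-ATPase signalling made in adipocytes alters the response of adipose tissue to loss of kidney mass. All 24 mice were male C57BL6 animals, 10 weeks old by the design text, that received an intraperitoneal lentivirus whose cargo is driven by the adiponectin promoter, which is active mainly in adipocytes. The 6 Control mice had sham surgery and virus carrying GFP, and the 6 NaKtide mice had sham surgery and virus carrying the NaKtide peptide. The 6 PNx mice had partial nephrectomy in 2 operations with the GFP virus, and the 6 PNx+NaKtide mice had the same surgery with the NaKtide virus. The peptide is thus limited to transduced cells in which that promoter is active, and the Control mice carry a virus too. Each library is from 1 mouse, so p-values measure the spread between these mice. The tests take the 6 libraries of a group as independent, though some lie close together, for a reason that was not tested. In a bulk sample, fewer cells of a type and less RNA per cell cannot be told apart.

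The libraries hold between 679250 (NaKtide replicate 5) and 2979505 counts (PNx replicate 1). Levels are given as CPM, counts scaled to the same library total. All 12 adipocyte markers were detected, and their summed level ran from 70.8 to 7891 CPM. Markers of other tissues were present as well. The 12 epididymis markers summed to between 28.2 and 3009 CPM, and the 10 testis germ cell markers, all detected, to between 11.9 and 2118 CPM. PNx replicate 6 had the highest sums of the adipocyte (7891 CPM), erythrocyte (2260 CPM) and endothelium lists (477 CPM). NaKtide replicate 6 stood at 3304 CPM for the adipocyte list and at 4137 CPM for the skeletal muscle list, which was at most 51.9 CPM elsewhere. PNx replicates 1, 2 and 3 stood apart from the other 21 libraries in the levels of the members, as given below. Adipocyte markers were therefore counted in every library, together with markers of other tissues in amounts that vary between mice. The median epididymis sum was above the median adipocyte sum in each group. It was 1536 against 411 CPM in Control, 1847 against 382 in NaKtide, 689 against 357 in PNx and 1592 against 276 in PNx+NaKtide. Sums of different genes do not give the share of a tissue, and that share was not measured.

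Gnas encodes the stimulatory alpha subunit of heterotrimeric G proteins, which couples receptors such as the beta-adrenergic receptors of adipocytes to adenylyl cyclase and so to cyclic AMP and lipolysis. It is a complex imprinted locus with several promoters and an antisense transcript, Nespas. Ftl1 encodes the light chain of ferritin, the iron storage protein, whose translation is held back by iron regulatory proteins that bind an iron-responsive element in the 5′ UTR of its mRNA. Cep85 encodes a centrosomal protein, Cnbd2 a protein with a cyclic nucleotide binding domain known from male germ cells, and Ermard a membrane protein of the endoplasmic reticulum. Gm20721 and Gm10252 are gene models without an assigned function.

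A gene that overlaps another on the opposite strand can be counted apart from it only if the counting uses the strand of the reads. The kit keeps strand by the labels, but whether the counting used it, and in which orientation, is not given in the sources used here. Counts of the overlapping genes below are uncertain for that reason, and so are those of genes with near-identical copies. The orientation bears on the counts of genes without an overlap too, marker genes included. The sequences show how close the overlap is. They are from GENCODE M21 transcripts on GRCm38, are written 5′ to 3′ on the strand of the gene named, and have in capitals the bases that are exon of both genes of a pair. The first pair is a coding exon of Gnas and the Gm20721 exon opposite to it, which is 3 bases shorter.

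Gnas, chr2:174345075-174345129, plus strand: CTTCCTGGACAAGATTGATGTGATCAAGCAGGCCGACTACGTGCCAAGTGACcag

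Gm20721, chr2:174345075-174345126, minus strand: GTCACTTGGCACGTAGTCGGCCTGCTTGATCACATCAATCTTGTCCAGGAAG

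A second pair from the same locus shows an offset in the other direction, in which the Gm20721 exon runs 2 bases past the Gnas exon.

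Gnas, chr2:174343200-174343297, plus strand: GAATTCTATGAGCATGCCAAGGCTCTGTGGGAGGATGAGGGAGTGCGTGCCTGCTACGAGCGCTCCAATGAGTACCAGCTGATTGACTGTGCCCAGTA

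Gm20721, chr2:174343198-174343297, minus strand: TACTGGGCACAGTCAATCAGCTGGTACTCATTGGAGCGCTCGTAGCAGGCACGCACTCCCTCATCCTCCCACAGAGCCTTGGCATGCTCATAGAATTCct

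The next pair is the coding part of the first Ftl1 exon, which opens with the start codon, and the Gm10252 bases opposite to it.

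Ftl1, chr7:45459530-45459631, minus strand: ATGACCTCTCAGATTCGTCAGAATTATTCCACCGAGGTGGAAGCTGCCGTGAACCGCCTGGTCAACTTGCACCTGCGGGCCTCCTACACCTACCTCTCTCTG

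Gm10252, chr7:45459530-45459631, plus strand: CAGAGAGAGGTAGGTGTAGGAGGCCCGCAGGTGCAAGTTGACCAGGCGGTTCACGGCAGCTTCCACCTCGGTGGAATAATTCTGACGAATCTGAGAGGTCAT

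The last sequence is a stretch of the Ftl1 5′ UTR with, in capitals, the only match in that UTR of CAGTGN, the loop motif of iron-responsive elements. Its bases are also exon of Gm10252 on the other strand. The match is a description and not a test of binding.

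Ftl1 5′ UTR, chr7:45459778-45459807, minus strand: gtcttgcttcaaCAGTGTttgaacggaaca

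Gm20721 (ENSMUSG00000090625, chr2:174330319-174346712, minus strand) is annotated as protein-coding and lies within Gnas (ENSMUSG00000027523, chr2:174284320-174346744, plus strand). Of its 1484 exon bases, 1469 (99.0%) are also exon of Gnas, in 12 regions, and they make up 13.1% of the exon bases of Gnas. Of its 13 exons, 10 have both ends within 3 bases of the ends of a Gnas exon. Gm10252 (ENSMUSG00000110350, chr7:45459469-45460300, plus strand) is a model of 1 exon and 832 bases. It shares 355 bases (42.7%) with Ftl1 (ENSMUSG00000050708, chr7:45457944-45459884, minus strand). Those bases are the first exon of Ftl1, 26.5% of its exon bases, and hold its 5′ UTR and its start codon.

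**Figure D1:**
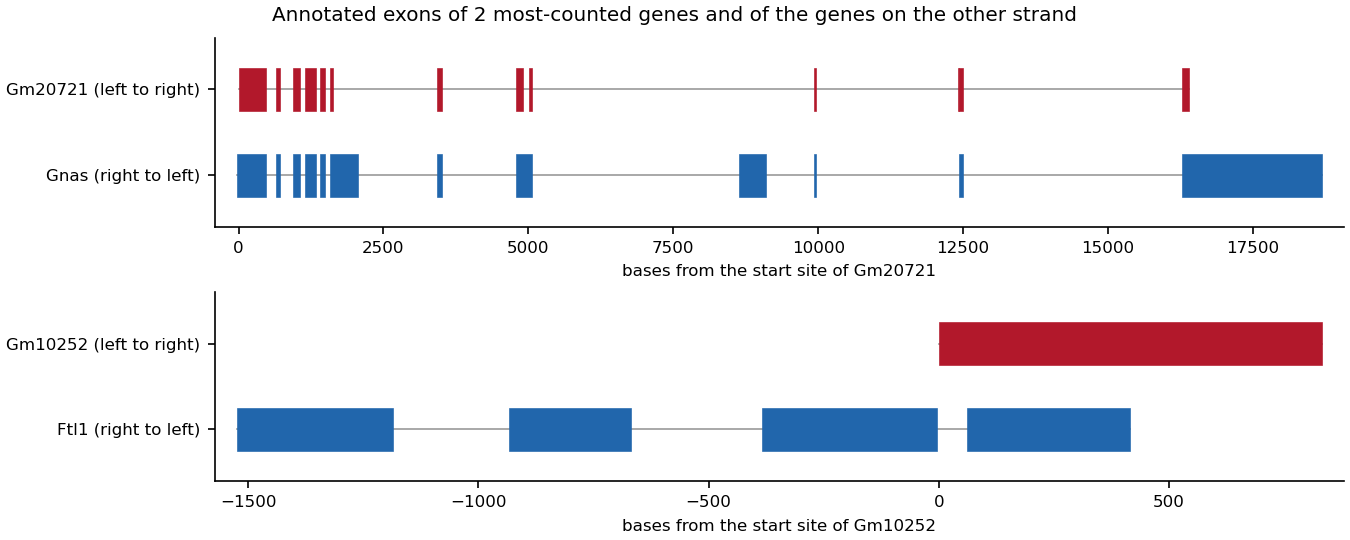
Annotated exons (boxes) of Gm20721 and Gnas in the upper panel and of Gm10252 and Ftl1 in the lower panel, in bases from the start site of the first gene of each pair, which is drawn from left to right. Exons of Gm20721 sit over exons of Gnas in 12 regions (only the 3′ part of Gnas is drawn), and the exon of Gm10252 covers the first exon of Ftl1.

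Most of the counts at both loci were assigned to the genes without known function. From which strand the transcripts came was not tested, so levels and ratios below are those of the gene labels. Gm20721 had 494148 counts in all, rank 3 of all genes and 1.18% of all counts, against 4347 for Gnas (rank 1483), which is 114 times as many. Per kilobase of exon the ratio was 857. In CPM, Gm20721 ranged from 12834 to 15972 (median 14436) in Control, from 13209 to 14595 (median 13925) in NaKtide, and from 11650 to 15674 (median 11980) in PNx+NaKtide. In PNx it ranged from 1693 to 18480, with a median of 6748. PNx held both the lowest library (replicate 1) and the highest (replicate 4), so that its range contains that of each other group. The SD of log2 CPM was 0.11, 0.06 and 0.17 in Control, NaKtide and PNx+NaKtide and 1.34 in PNx.

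Gnas varied differently from the gene opposite to it. Its level was 68.5 to 183 CPM (median 104) in Control, 71.0 to 226 CPM (median 118) in NaKtide, 66.2 to 167 CPM (median 90.4) in PNx+NaKtide and 31.2 to 237 CPM (median 60.1) in PNx. The 4 ranges overlap, so the order of the medians is within their spread. Spearman's rho between Gm20721 and Gnas over the 24 libraries was 0.103, a description of libraries of unequal depth and tissue content. The ratio of Gm20721 to Gnas counts lay between 37.7 (PNx replicate 6) and 267 (PNx replicate 4), with a median of 125. That Gm20721 had more counts in every library is favoured by its choice for a high total. Nespas, which shares 988 exon bases with Gnas, had 40 counts in all libraries together.

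Gm10252 had 343507 counts (rank 9, 0.822% of all counts) and Ftl1 had 2386 (rank 2441), a ratio of 144 and of 232 per kilobase of exon. Gm10252 lay between 6920 and 11156 CPM (median 9436) in Control, between 8105 and 14806 CPM (median 11419) in NaKtide and between 7362 and 16868 CPM (median 9060) in PNx+NaKtide. In PNx it lay between 646 and 12234 CPM, with a median of 4560. The 3 lowest values of the series, 646 to 2132 CPM, are PNx replicates 1, 2 and 3, and the other PNx mice lie within the range of the remaining groups.

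Ftl1 stood at 18.2 to 71.4 CPM (median 35.3) in Control, 43.5 to 87.2 CPM (median 58.8) in NaKtide, 21.5 to 131 CPM (median 45.0) in PNx+NaKtide and 3.02 to 362 CPM (median 20.3) in PNx. Both extremes belong to PNx, with replicate 1 the lowest and replicate 6 the highest. PNx replicate 6 is also the library with the highest erythrocyte and adipocyte marker sums, and their part in its Ftl1 level was not tested. The ratio of Gm10252 to Ftl1 counts ran from 33.8 (PNx replicate 6) to 527 (Control replicate 2), with a median of 173. It was above 1 in 24 of 24 libraries, which the choice of Gm10252 for its total favours.

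Near-identical copies make the counts at the ferritin locus less certain. Of all stretches of 50 bases in the Ftl1 transcripts, 47.3% also occur in the pseudogene Ftl1-ps1. Gm10252 shares 26.9% of its stretches with Gm47428, a gene model that lies opposite to Ftl1-ps1 as Gm10252 lies opposite to Ftl1. The count ratio of Gm10252 to Gm47428 was between 1.14 and 1.84 in all 24 libraries, while the level of Gm10252 itself had a 26.1-fold range. The count ratio of Ftl1 to Ftl1-ps1 was between 0.795 and 1.80, against a 120-fold range of Ftl1.

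Cep85 (ENSMUSG00000037443, chr4:134129858-134187112, minus strand) had the highest total of any gene, 1110857 counts or 2.66% of all counts. It has no annotated exon overlap on the opposite strand. Its level was 24625 to 43039 CPM (median 34630) in Control and 25394 to 39363 CPM (median 26560) in PNx+NaKtide. The spread was wider in NaKtide, from 2802 to 69989 CPM (median 34633), and in PNx, from 271 to 43230 CPM (median 8085). The low ends of these ranges are NaKtide replicate 6 and PNx replicate 1, and the SD of log2 CPM was 1.70 and 2.65 in these groups against 0.31 in Control and 0.24 in PNx+NaKtide.

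Cnbd2 (ENSMUSG00000038085, chr2:156312299-156375638, plus strand) had 334639 counts (rank 10). It lay between 7973 and 12906 CPM (median 10590) in Control, 1146 and 20932 CPM (median 10470) in NaKtide, 229 and 12762 CPM (median 2420) in PNx, and 6732 and 11780 CPM (median 7678) in PNx+NaKtide. The lowest and the highest library of each group were the same mice as for Cep85. Spearman's rho between both genes over the 24 libraries was 0.977, and the count ratio of Cep85 to Cnbd2 was 3.09 to 3.77 in 22 libraries. The other libraries were those with the lowest levels, PNx replicate 1 with a ratio of 1.18 and NaKtide replicate 6 with 2.44.

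The transcripts of Cep85 and Cnbd2, on different chromosomes, have sequence in common. They share 393 stretches of 50 bases on the same strand, 7.42% of those of Cep85 and 10.0% of those of Cnbd2, and the longest unbroken run has 338 bases. In Cnbd2 the shared sequence lies in the region chr2:156356556-156357101 and in Cep85 in chr4:134164112-134164702. Reads from either locus that fall there match both, and how such reads were counted is not given in the sources used here. Gm26880, the gene with the second highest total (525954 counts), shares 156 stretches with Cep85 and 172 with Cnbd2 on the same strand. Its rho was 0.942 with Cep85 and 0.947 with Cnbd2.

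**Figure D2:**
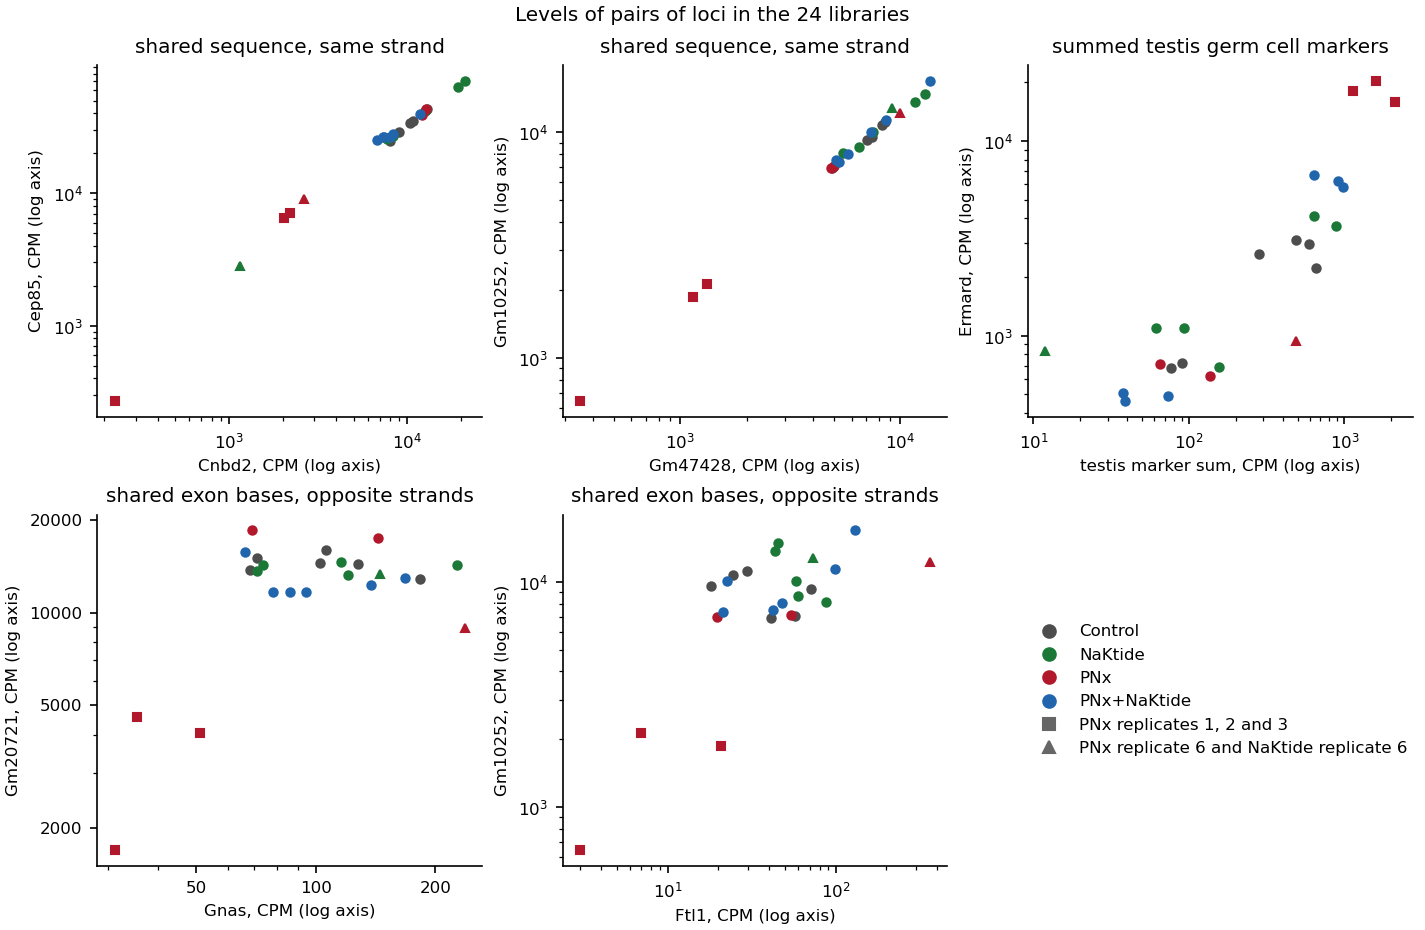
Levels of pairs of loci in the 24 libraries, in CPM on log axes, with 1 point per library and colours for the groups. Cep85 follows Cnbd2 and Gm10252 follows Gm47428 closely, and Ermard rises with the summed testis germ cell markers. Gm20721 with Gnas (rho 0.103) and Gm10252 with Ftl1 (rho 0.564) follow each other less closely. Squares are PNx replicates 1, 2 and 3.

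Cnbd2 has exon overlaps with Gm14252 (526 bases) and with Scand1 (307 bases), which encodes a SCAN domain protein. The total of Cnbd2 was 33.4 times that of Gm14252, or 27.7 times per kilobase of exon. The count ratio had a median of 127 and ran from 0.236 (PNx replicate 1) to 2031 (NaKtide replicate 5). Cnbd2 was the higher gene in 23 of 24 libraries, and PNx replicate 1 was the exception. Gm14252 itself ranged from 10.2 to 970 CPM in PNx (median 425) and from 12.8 to 91.8 CPM in Control (median 76.2).

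Ermard (ENSMUSG00000036552, chr17:15041208-15090044, plus strand) went the other way from the other most-counted members in PNx replicates 1, 2 and 3. With 220411 counts (rank 15, 0.527%) it is the last member chosen for its total. Its levels in PNx were 20302, 18129 and 15846 CPM in replicates 1, 2 and 3, and 716, 622 and 933 CPM in replicates 4, 5 and 6. The group thus holds the 3 highest libraries of the series and none between 933 and 15846 CPM. PNx+NaKtide was split as well, with 6671, 6198 and 5815 CPM in replicates 2, 3 and 4 and 487, 509 and 462 CPM in replicates 1, 5 and 6. Control lay between 684 and 3097 CPM (median 2435) and NaKtide between 687 and 4127 CPM (median 1097).

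The Ermard level moved with the testis germ cell markers, genes such as the protamines that belong to developing sperm. The 3 PNx libraries with high Ermard had marker sums of 1129 to 2118 CPM, and the rest of that group 64.8 to 492 CPM. In PNx+NaKtide the sums were 634 to 972 CPM in replicates 2, 3 and 4 and 37.7 to 73.7 CPM in replicates 1, 5 and 6. Spearman's rho between Ermard and the marker sum was 0.867 over the 24 libraries. The part of testis RNA in the Ermard level was not tested. Other members moved with marker lists too, over the same 24 libraries. With the testis list the rho was -0.70 for Gm10252, -0.63 for Gm20721 and -0.53 for both Cep85 and Cnbd2. For Gm14252, a partner of Cnbd2 and no member, it was 0.889. With the macrophage list the rho was 0.63 for Gm20721, 0.60 for both Cep85 and Cnbd2 and -0.57 for Ermard. It was 0.27 for Gnas, 0.22 for Ftl1 and 0.12 for Gm10252. Gnas had a rho of 0.74 with the erythrocyte and 0.62 with the adipocyte list, and Ftl1 0.58 and 0.64. The part of these tissues in those levels was not tested either.

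Both genes opposite to Ermard followed the same course. Tcte3, a testis-expressed gene for a dynein light chain, shares 193 of its exon bases (26.7%) with Ermard, and its rho with the marker sum was 0.923. Gm3448, with 97 shared bases (3.36%), had a rho of 0.894. The total of Ermard was 93.2 times that of Tcte3, or 9.29 times per kilobase of exon. Ermard counts exceeded Tcte3 counts in all 24 libraries, by 56.9-fold (PNx replicate 3) or more, with a median ratio of 106. In PNx+NaKtide replicate 5, Tcte3 had 0 counts beside 769 for Ermard. A count of 0 allows up to 3 counts there, or 1.99 CPM, by counting error alone.

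Ermard also has sequence in common with 2 nearby genes on the same strand. It shares 31.4% of its stretches with 9030025P20Rik (chr17:14978468-14991572) and 16.7% with Gm3435 (chr17:15010176-15022449). Its count ratio to 9030025P20Rik ran from 0.288 to 2.31 over the libraries.

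**Figure D3:**
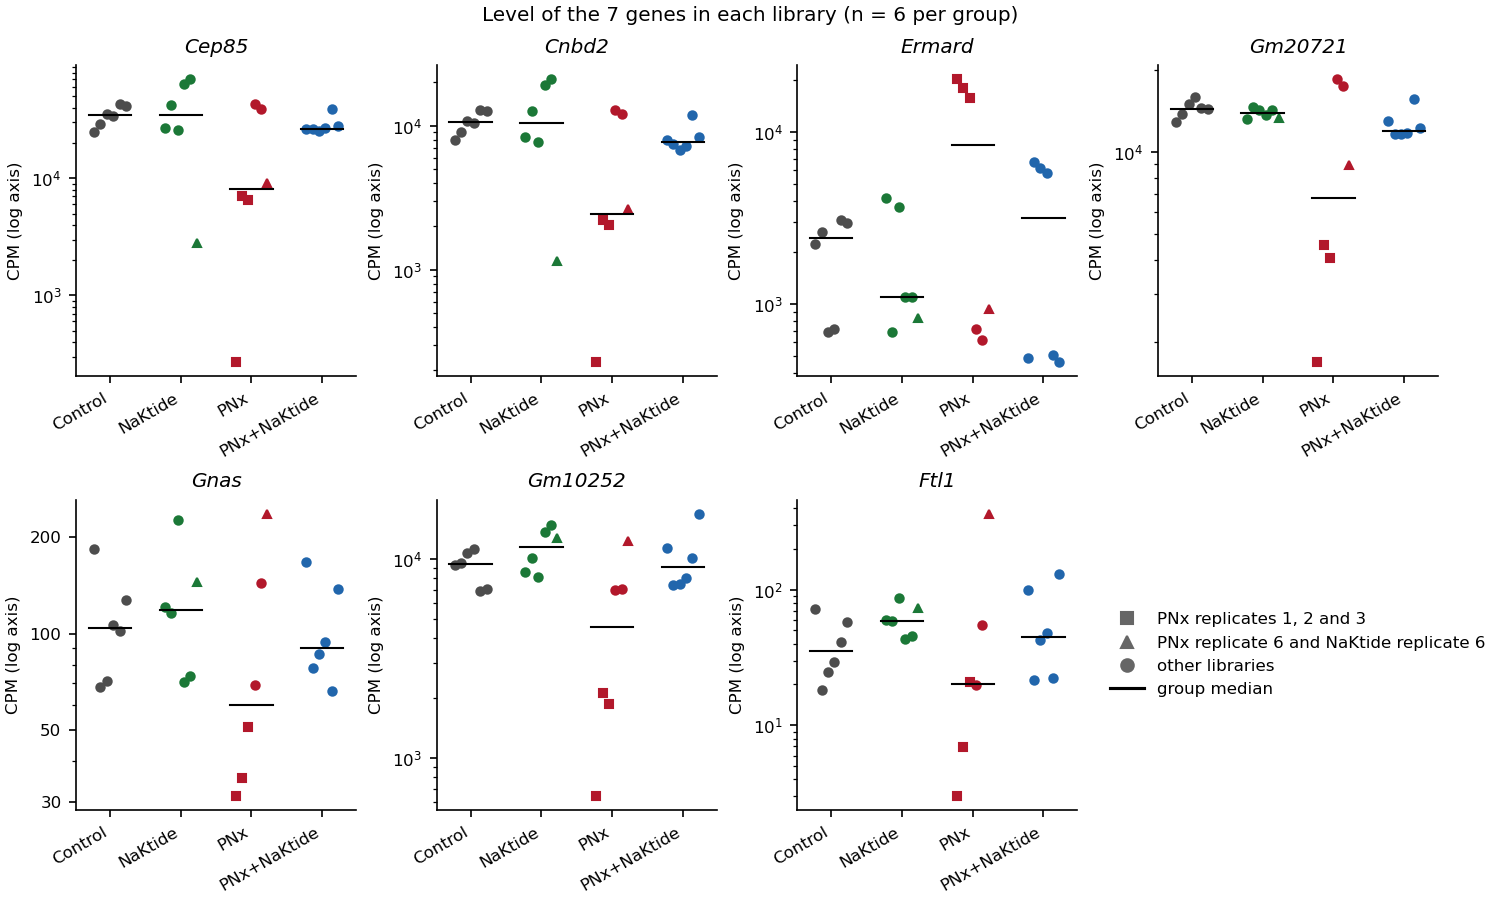
Level of each of the 7 genes in CPM on a log axis, with 1 point per library, 6 libraries per group and the group median as a line. PNx replicates 1, 2 and 3 (squares) are the lowest libraries for Gm20721, Gnas and Gm10252 and the highest for Ermard.

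The same 3 PNx libraries separated 4 members without overlap from the other 21 libraries, whatever the group of the latter. For Gm20721 the values were 1693 to 4562 CPM against 8934 to 18480 CPM, and for Gm10252 646 to 2132 CPM against 6920 to 16868 CPM. Gnas stood at 31.2 to 51.1 CPM against 66.2 to 237 CPM, and Ermard at 15846 to 20302 CPM against 462 to 6671 CPM. For Cep85 and Cnbd2, NaKtide replicate 6 lay within the range of the 3 libraries. For Ftl1 the ranges met in 2 other libraries. These libraries were set apart by their values and are no group of the study, so no test was made. How many of all genes they separate in this way was not counted, so the separation cannot be called particular to the members.

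The members were read against the order of totals. Ermard, with 220411 counts, lies just inside, and C330021F23Rik, with 215242, just outside. The nuclear genes from rank 1 to C330021F23Rik are 15, and 9 of those ranked above Ermard are no members, among them Gm26880, Gm44510, Gm47428 and Snx22. Of the 15, 13 have exon bases in common with a gene on the other strand, as do 16.8% of all annotated genes, and 14 had their lowest level in PNx replicate 1. Ermard was the exception, with its highest level there. The share of all genes that are lowest in PNx replicate 1 was not counted, so this cannot be called particular to the most-counted genes. The 7 members held 6.00% of all counts, from 2.32% in PNx replicate 1 to 12.1% in NaKtide replicate 5.

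Genes with the most similar course over the 24 libraries were sought among 19743 genes with a mean of at least 1 CPM, overlapping genes and unnamed models aside. For Cep85 these were Cnbd2 (rho 0.977), Agbl5 (0.948) and Nox1 (0.937), and for Cnbd2 they were Cep85, Unkl (0.932) and Rpl13-ps1 (0.930). Ermard was closest to Dhtkd1 (0.968), Aldh1l1 (0.965) and Mast4 (0.962), and Gm20721 to Rnf123 (0.916), Gnal (0.909) and Preb (0.907). The opposite-strand partners had other neighbours. Gnas was closest to Fasn (0.950), which encodes fatty acid synthase, Cd74 (0.949) and G6pdx (0.949), and Ftl1 to Ftl1-ps1 (0.969), Ncl (0.962) and Mlf2 (0.955). Gnas and Ftl1 had a rho of 0.922 with each other, while that of Gm10252 with Ftl1 was 0.564. Gm10252 was closest to Itgb3bp (0.850), Ogfr (0.849) and Dtx3l (0.837), values below that of the model Gm47428 (0.994).

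The ratio of a member to its opposite-strand partner does not depend on how libraries are scaled, and 4 pairs were compared between groups on the log2 scale with 0.5 added to each count. None of the 16 differences passed a two-sided exact permutation test after adjustment, with the lowest adjusted p at 0.812, and the ranges overlapped in each. The smallest p the design allows is 0.00216. For Gm20721 to Gnas the mean log2 ratio was 6.55 ± 1.00 (SD, n = 6) in PNx and 7.11 ± 0.59 in Control, a difference of -0.57 (exact permutation p = 0.262). For Gm10252 to Ftl1 it was 7.15 ± 1.25 and 7.94 ± 0.94, a difference of -0.80 (exact permutation p = 0.240). For Ermard to Tcte3 the difference was 0.05 (exact permutation p = 0.905).

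Cnbd2 to Gm14252 had the widest spread, 4.58 ± 5.14 (SD, n = 6) in PNx against 7.77 ± 1.23 in Control, a difference of -3.20 (exact permutation p = 0.184). It became 1.23 without PNx replicates 1, 2 and 3, a setting chosen after the data were seen. A difference that misses the threshold does not show that the ratios are alike.

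**Figure D4:**
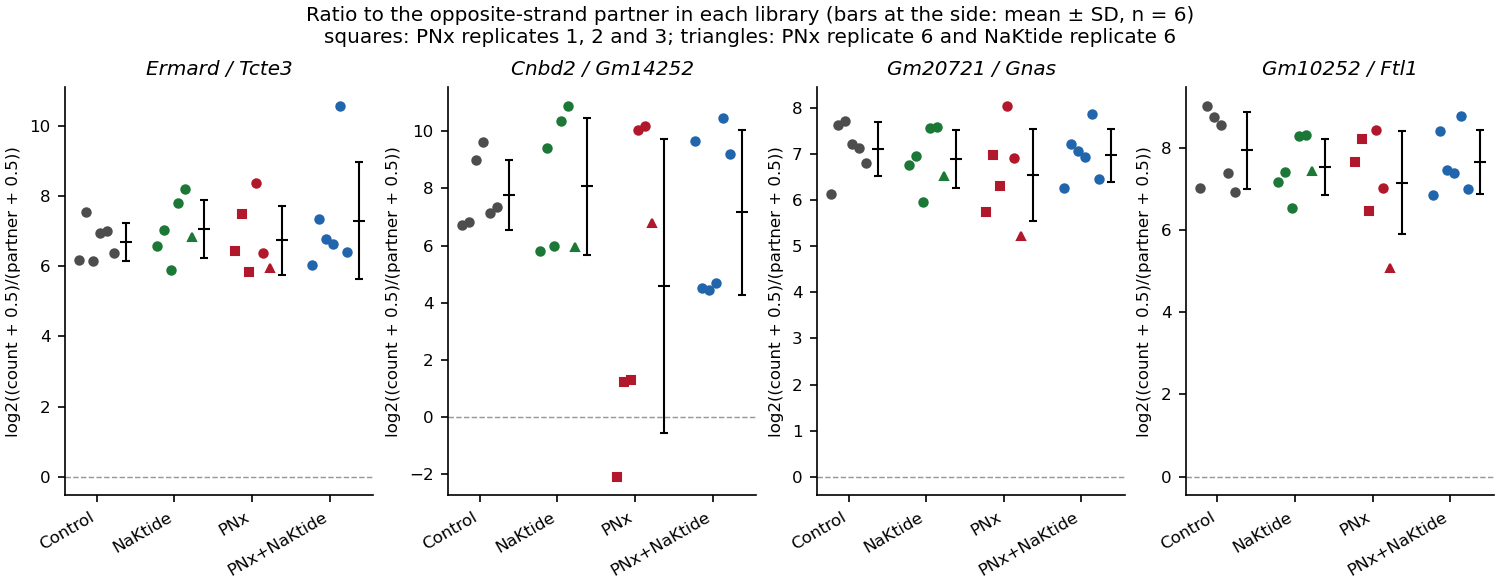
Log2 ratio of the counts of 4 members to those of the gene on the other strand, with 0.5 added to each count, 1 point per library and the mean ± SD of 6 libraries beside each group. Points above the dashed line at 0 have more counts for the member, which holds for all libraries but PNx replicate 1 in the panel of Cnbd2 and Gm14252.

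Differences between groups were tested with edgeR's quasi-likelihood test over 26116 genes, with Benjamini-Hochberg adjustment and a threshold of 0.1. No member passed in PNx against Control, where 20 genes (0.0766%) did, all of them lower in PNx. That count and its direction depend on the scaling, with 8696 genes (7971 higher, 725 lower) under DESeq2 size factors, 4102 (3523 higher, 579 lower) under library sizes alone and 7764 (6861 higher, 903 lower) in DESeq2. It was 0 to 7213 with single libraries left out. At an unadjusted p under 0.05, 2 of 7 members passed, Ermard higher and Gm10252 lower in PNx. That is a share near the 25.4% of all genes that did so, 18.5% higher and 6.88% lower. The values are relative to a median log2 fold change of 0.36 over all genes, which was 0.76 with DESeq2 size factors and 0.70 with library sizes alone. The CPM ranges of both groups overlapped for each of the 7 genes, and failed to overlap for 0.509% of all genes.

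Ermard had a log2 fold change of 1.78 ± 0.84 (SE) in PNx against Control, with a 95% interval from 0.13 to 3.43 and an adjusted p of 0.189 in edgeR. It was 1.36 to 2.02 when libraries were left out singly. Without PNx replicate 4 it passed (2.01, adjusted p = 0.0958), and without PNx replicate 5 as well (2.02, adjusted p = 0.0995). With single libraries left out, between 0 and 7213 of the 26116 genes passed, so such a call is not particular to Ermard. Ermard also passed in DESeq2 (2.58, adjusted p = 0.0204), in edgeR with DESeq2 size factors (2.58, adjusted p = 0.0530) or a stricter expression filter (2.18, adjusted p = 0.0998), and in limma voom with sample weights (2.40, adjusted p = 0.00761). In that order, these settings called 7764 of 25767, 8696 of 26116, 2159 of 12050 and 16654 of 26116 tested genes. Without PNx replicates 1, 2 and 3 it was -1.57 ± 0.92 (adjusted p = 0.538 in edgeR). The direction of Ermard thus rests on the 3 libraries that also carry the highest testis marker sums.

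Gm10252 was -1.03 ± 0.47 (95% interval -1.95 to -0.10, adjusted p = 0.179 in edgeR), Gm20721 -0.73 ± 0.43 (adjusted p = 0.270), Cep85 -0.99 ± 0.75 (adjusted p = 0.381) and Cnbd2 -1.01 ± 0.70 (adjusted p = 0.339). Without PNx replicate 4, edgeR called Cnbd2 (-1.69, adjusted p = 0.0972), Gm20721 (-1.26, adjusted p = 0.0562) and Gm10252 (-1.31, adjusted p = 0.0738), and without PNx replicate 6 it called Gm10252 (-1.30, adjusted p = 0.0989), as it did with NaKtide replicate 6 left out too. That last run called 5497 of the 26116 genes, and runs with single libraries left out called between 0 and 7213, so these calls are not particular to the members. Without PNx replicates 1, 2 and 3 the values of these genes in edgeR were -0.23 for Gm10252, 0.04 for Gm20721, -0.14 for Cep85 and -0.17 for Cnbd2. Limma voom with sample weights, which called 16654 of the 26116 genes, also called Cep85 (-3.49), Cnbd2 (-3.17), Gm10252 (-2.72), Gm20721 (-2.25), Gnas (-1.55) and Ftl1 (-1.97).

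The opposite-strand partners had values of their own. Gnas was -0.46 ± 0.40 (95% interval -1.24 to 0.32, adjusted p = 0.446 in edgeR) and Ftl1 0.56 ± 0.68 (95% interval -0.78 to 1.90, adjusted p = 0.598). Ftl1 became -1.02 without PNx replicate 6, the library in which it is highest. Among the partners that are no members, Gm14252 was 2.54 ± 1.08 (adjusted p = 0.163), Tcte3 1.96 ± 0.98 (adjusted p = 0.204), Gm3448 1.52 ± 0.75 (adjusted p = 0.201) and Scand1 1.17 ± 0.46 (adjusted p = 0.149).

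**Figure D5:**
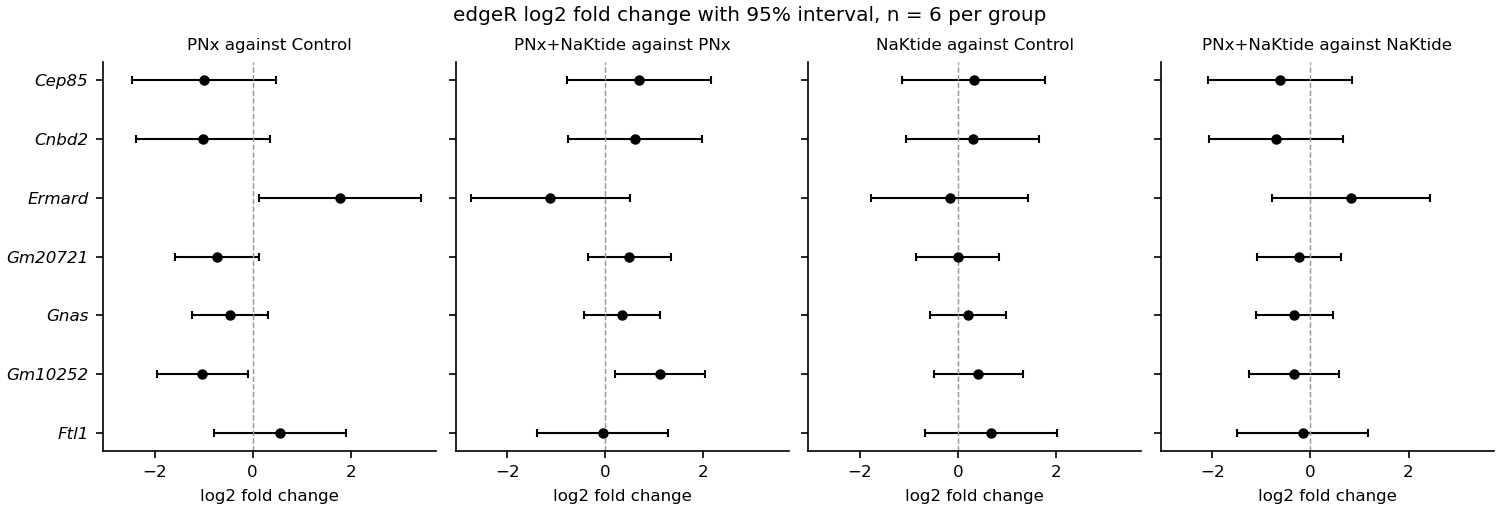
Fitted log2 fold change of each member in 4 comparisons (points) with its 95% interval from the standard error (bars), for 6 libraries per group. Intervals leave out 0 for Ermard and Gm10252 in PNx against Control and for Gm10252 in PNx+NaKtide against PNx, and none of these passed after adjustment.

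PNx+NaKtide against PNx asks whether the peptide changed the level after nephrectomy, and it shares the PNx libraries with the comparison above. Gm10252 was 1.12 ± 0.47 (unadjusted p = 0.0251, adjusted p = 0.366 in edgeR) and Ermard -1.12 ± 0.83 (adjusted p = 0.494). Cep85 was 0.68 ± 0.75, Cnbd2 0.61 ± 0.70, Gm20721 0.49 ± 0.43, Gnas 0.34 ± 0.40 and Ftl1 -0.05 ± 0.68. No member and no other gene passed (0%), and at an unadjusted p under 0.05 edgeR listed 1 of 7 members and 12.7% of all genes. DESeq2 called 1514 genes in this comparison, none of them a member, and limma voom with sample weights called 11479, all 7 members among them. The CPM ranges of both groups overlapped for each member and failed to overlap for 0.528% of all genes.

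In NaKtide against Control the members ranged from -0.17 ± 0.82 (Ermard) to 0.67 ± 0.69 (Ftl1), and in PNx+NaKtide against NaKtide from -0.70 ± 0.70 (Cnbd2) to 0.83 ± 0.82 (Ermard), with an adjusted p of 1 for each in edgeR. No gene passed in either (0%). The CPM ranges overlapped for each member, and failed to overlap for 0.207% and 0.0842% of all genes. None of the 7 members and 3.95% and 4.09% of all genes had an unadjusted p under 0.05, and DESeq2 called 3 and 2 genes. The difference between the effect of nephrectomy with and without NaKtide ran from -0.95 (Ermard, 95% interval -3.22 to 1.32) to 0.70 (Gm10252, SE 0.66), with adjusted p-values of 0.724 or more. There too 0 of 26116 genes (0%) passed in edgeR, 9.27% had an unadjusted p under 0.05, and DESeq2 called 94. Limma voom with sample weights called 6662 genes, with Cep85, Cnbd2, Gm20721, Gnas and Gm10252 among them.

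The pathways of both annotated partners were read from the same fit. Of 21 tested genes of a ferritin and iron list, 0 passed in each of the comparisons, and at an unadjusted p under 0.05 edgeR listed 3 higher and 0 lower in PNx against Control, where 18.5% and 6.88% of all genes were so listed. In PNx+NaKtide against PNx it listed 0 higher and 4 lower, beside 1064 higher and 2245 lower of all 26116 genes. It listed 1 higher in NaKtide against Control, beside 532 of all genes, and 0 in PNx+NaKtide against NaKtide, beside 4.09%. In the interaction it listed 0 higher and 3 lower, beside 910 higher and 1511 lower of all genes. In PNx against Control the median log2 fold change of the ferritin and iron genes was 0.46, beside 0.36 over all genes. The 3 with the highest mean level were Pcbp2 (191 CPM), an iron chaperone and RNA-binding protein, Hmox2 (121 CPM), a haem oxygenase, and Fth1 (64.7 CPM), the ferritin heavy chain. Of 28 tested genes of a Gs and cyclic AMP list, 0 passed in each comparison, and at an unadjusted p under 0.05 edgeR listed 2 higher and 1 lower in PNx against Control, a smaller share than the 25.4% of all genes, with a median of 0.41. It listed 0 in PNx+NaKtide against PNx and in NaKtide against Control, beside 12.7% and 3.95% of all genes. It listed 1 lower in PNx+NaKtide against NaKtide and 3 lower in the interaction, beside 675 and 1511 lower of all 26116 genes. Gnas (109 CPM), the adenylyl cyclase Adcy3 (93.8 CPM) and the G protein subunit Gnb2 (29.1 CPM) had the highest mean levels of that list. Pcbp2, Hmox2, Gnas and Adcy3 overlap a gene on the other strand, so their counts and the order in both lists are uncertain. Fth1 and Gnb2 have no such overlap, but the orientation of the counting, which is not given, bears on their counts too.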

How the data were processed

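Adipose tissue RNA of 24 mice was sequenced from stranded mRNA libraries. Per the labels and the submitters' processing notes, the authors trimmed reads with Trimmomatic 0.38 and aligned them with HISAT2 2.1.0 to GRCm38, and deposited raw counts per gene and FPKM values per gene. The annotation release, the strand setting and the treatment of reads with several matches are not given in the sources used here. Columns were assigned to mice by title. The members and lists were chosen with earlier results of these data known.

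Symbols, exons and sequences came from GENCODE M21, in which 54165 identifiers were found. Genes with more than 10 counts in all were fitted with edgeR 4.0.16 (TMM, robust quasi-likelihood, 4 group means, Benjamini-Hochberg, threshold 0.1) in R 4.3.3. DESeq2 1.42.0 and limma 3.58.1 were alternatives, the latter also on log2(FPKM + 1) and log2(FPKM + 0.1), which understate changes of low genes. The biological coefficient of variation was 71.4%. Ratios were compared by exact permutation with SciPy 1.17.1, adjusted over 16 tests. Intervals of fold changes are 95%. The tests were checked on simulated counts. No pair of libraries was alike within sampling noise, but some of the same group lay close together. The chi-square per degree of freedom was lowest, 1.57, for Control replicates 5 and 6. It was 1.93 to 2.60 among PNx+NaKtide replicates 2, 3 and 4, and 2.62 for Control replicates 3 and 4. For NaKtide it was 2.09 for replicates 1 and 3 and 2.96 for replicates 4 and 5. PNx replicates 4 and 5 had 5.62. Named genes are the members, their opposite-strand partners, neighbours in the order of totals, the 3 most similar genes of each member, and the 3 highest of each list. Genes with shared sequence (Gm26880, Gm47428, Ftl1-ps1, 9030025P20Rik, Gm3435) were named after their values were seen.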

Additional observations from a re-analysis of the deposited data

Results flagged for a closer look

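In a group of 6 libraries, a library was singled out when its gap to its neighbour was large against the range of the group on the log2 scale (Dixon's 95% critical value). Of 44 groups of values tested, 6 held such a library, and chance gives about 1 in 20. Cep85 was at 2802 CPM in NaKtide replicate 6, with the next library of the group at 25615 CPM. It was at 271 CPM in PNx replicate 1, with the next at 6509 CPM. In PNx+NaKtide replicate 5 it stood at 39363 CPM, above the next library at 28114 CPM. Cnbd2 was at 1146 CPM in NaKtide replicate 6, below the next at 7706 CPM. Gm20721 was at 15674 CPM in PNx+NaKtide replicate 5, above the next at 12985 CPM. The log2 ratio of Ermard to Tcte3 was 10.59 in PNx+NaKtide replicate 5, above the next at 7.36, and rests on a Tcte3 count of 0.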

How the results depend on the processing

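No member passed in the edgeR test as reported, and the log2 fold changes of Ermard and Gm10252 between PNx and either Control or PNx+NaKtide kept their direction under each scaling, filter and tool, and under the replicate block. Depth limits Tcte3, which had 0 counts in PNx+NaKtide replicate 5. A missed threshold does not show that a level was the same. Where a direction changed, the cause was not tested.

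In PNx against Control the 20 called genes (0 higher, 20 lower) became 8696 with DESeq2 size factors (7971 higher, 725 lower), 4102 with library sizes (3523 higher, 579 lower), 2159 with the filterByExpr filter (1742 higher, 417 lower), 1 with no filter, 0 with the compared groups only or an adjusted p under 0.05, 16654 with voom, 40 and 7 with limma on log2(FPKM + 1) and log2(FPKM + 0.1), and 7764 with DESeq2. Without PNx replicates 1, 2 and 3 it was 0, without PNx replicate 6 and NaKtide replicate 6 it was 5497 (both chosen after the data were seen), and with single libraries left out it was 0 to 7213. The 0 genes of the other comparisons became 1514, 3, 2 and, for the interaction, 94 in DESeq2, 11479 (PNx+NaKtide against PNx), 2 (NaKtide against Control) and 6662 (interaction) in voom, 4 and 4 (PNx+NaKtide against PNx), 1 and 2 (NaKtide against Control) and 1 (PNx+NaKtide against NaKtide) on the FPKM scales, and 0 to 1 (interaction) with libraries left out.

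The replicate numbers were not taken to pair the samples: 18 of 36 same-numbered pairs had a correlation of deviations over 0.1, from -0.61 to 0.71. It was 5 of 6 between NaKtide and PNx (median 0.43) and 4 of 6 between PNx and PNx+NaKtide (median 0.50). The other pairs of groups had 2 or 3 of 6. This check cannot exclude a pairing in some groups. With the replicate block the calls were 1 in PNx against Control and 2 in the interaction. The block turned Ftl1 in PNx to -0.27 against Control, and PNx+NaKtide to 0.64 against PNx, and in NaKtide against Control Cep85 to -0.14, Cnbd2 to -0.16 and Gm20721 to -0.036.

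Ftl1 turned to -0.39 and -0.47 on the FPKM scales, -1.97 in voom and -1.02 without PNx replicate 6 and NaKtide replicate 6 in PNx against Control, to 0.84, 0.93, 2.23 and 1.53 in PNx+NaKtide against PNx, and to 0.016, 0.076, 1.47 and 0.91 in the interaction. In NaKtide against Control, Cep85 was -0.21 on both FPKM scales, Cnbd2 -0.16 on both and -0.0046 in voom, Ermard 0.063 in voom, and Gm20721 -0.042 with the compared groups only, -0.054 with library sizes, -0.055 in voom, -0.0027 with no filter and -0.00063 with library sizes without the members. In the interaction Gnas was -0.088 in DESeq2, -0.085 with DESeq2 size factors, -0.022 with filterByExpr and -0.042 with library sizes, and with libraries left out, singly or PNx replicate 6 and NaKtide replicate 6 together, Cep85 ran from -0.060 to 1.08, Cnbd2 from -0.11 to 0.99 and Gnas from -0.068 to 0.53.

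Without PNx replicates 1, 2 and 3, PNx against Control turned to -1.57 for Ermard, 0.041 for Gm20721 and 0.25 for Gnas. PNx+NaKtide against PNx turned to -0.16 for Cep85, 2.23 for Ermard, -0.23 for Cnbd2, -0.27 for Gm20721 and -0.37 for Gnas. The interaction turned to -0.48 for Cep85, 2.39 for Ermard, -0.53 for Cnbd2, -0.27 for Gm20721, -0.58 for Gnas and -0.10 for Gm10252. The ratio of Cnbd2 to Gm14252 turned to 1.23 for PNx over Control and to -1.84 for PNx+NaKtide over PNx.

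With single libraries left out, Ftl1 ran from -1.02 to 0.82 (PNx against Control), -0.42 to 1.53 (PNx+NaKtide against PNx), -0.52 to 0.019 (PNx+NaKtide against NaKtide) and -1.09 to 0.86 (interaction). In NaKtide against Control Cep85 ran from -0.014 to 0.57, Ermard from -0.48 to 0.0098, Cnbd2 from -0.026 to 0.54 and Gm20721 from -0.079 to 0.058. The ratio of Ermard to Tcte3 ran from -0.27 to 0.24 (PNx against Control), -0.10 to 0.88 (PNx+NaKtide against PNx) and -0.42 to 0.49 (PNx+NaKtide against NaKtide), that of Cnbd2 to Gm14252 from -0.27 to 0.74 (NaKtide against Control), and in PNx+NaKtide against NaKtide those of Gm20721 to Gnas from -0.11 to 0.22 and of Gm10252 to Ftl1 from -0.11 to 0.28. The ratio of Ermard to Tcte3 in PNx against Control was -0.035 with 5 added to each count, and in ranks -0.67 there and in PNx+NaKtide against NaKtide, as that of Cnbd2 to Gm14252 was -0.33 in NaKtide against Control.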
